A study of Mus musculus with 4 samples.

Results

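The genes described here belong to the granules and receptors of eosinophils, mast cells and basophils. The rule was a list of 10 symbols, and 8 of the 13614 genes in the count table carried one of them: Prg2, Prg3, Epx, Il5ra, Hdc, Cpa3, Mcpt8 and Ms4a2. The other listed genes, Fcer1a and Gzmb, were not analysed here, because neither their symbols nor their gene IDs matched a row. Every gene in the table was above 0.5 CPM (a count divided by its library's total and rescaled) in at least 2 libraries. The lowest level that any gene reached in at least 2 libraries was 0.6702 CPM. A gene below 0.6702 CPM in 3 or 4 libraries has no row. The rule sets no threshold on a measured value, but the list was drawn up with earlier results of these data known.

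The libraries came from mouse fetal liver cells taken between embryonic days 14.5 and 16.5. One group was Prl2+/+, called wild type here, and the other was Prl2-/-, called Prl2 knockout, with 2 libraries each. Both groups carried MLL-AF9, a fusion oncogene of acute leukemia, delivered by a retroviral vector (MSCV-MLL-AF9-IRES-GFP), and were sorted for its GFP marker. The submitters define these sorted cells as leukemia-initiating cells, and RNA sequencing was used to ask what changes when the phosphatase PRL2 is missing. Strain, litter, sex, time in culture and clonality are not given in the labels used here. A cell population transduced outside the animal is the model in both groups, so the comparison says nothing of untransduced fetal liver.

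Eosinophils are granulocytes that depend on interleukin-5 and store cationic proteins and a peroxidase in their granules. Mast cells and basophils carry the high-affinity receptor for IgE and store histamine and proteases. All of these cells descend from blood progenitors, and GATA-family transcription factors take part in forming each lineage. Normal promyelocytes, the precursors of neutrophils, instead fill their primary granules with myeloperoxidase and serine proteases.

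Library totals lay between 14625725 and 15422309 counts. Ptp4a2, the gene of PRL2, had 4884 and 5105 counts with PRL2 and 89 and 104 counts without it, so the knockout labels held. Wild type 1 stood apart in sex-linked genes, with 11147 counts of Xist against 3 to 12 in the other libraries. Ddx3y had 12 counts there against 1173 to 1320 elsewhere. For each of the 8 genes that this library moves by more than 1.5 times, the log2 fold change without it is given.

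Prg2 was by far the most abundant of the 8 genes, and it was the gene with the largest excess in the knockout among them. Prg3, its neighbour on the chromosome, had a smaller excess. Epx, Il5ra, Hdc, Cpa3 and Ms4a2 overlapped between genotypes, and Mcpt8 was lower in both knockout libraries. None of the 8 genes passed the test across all genes, edgeR's quasi-likelihood test at a Benjamini-Hochberg adjusted p of 0.05 or less. That test called 0 of all genes higher (0%) and 1 lower (0.00735%), and the gene it called was Ptp4a2. DESeq2 (0.718% of its genes called in either direction), edgeR's likelihood ratio test (0.477%), limma-voom (0.00735%) and the authors' deposited table (0.477%) also called 0 of the 8. DESeq2 gave Il5ra no adjusted p. The deposited adjusted p-values of the 8 genes equalled those of the likelihood ratio test, so these were not taken as separate analyses. In each genotype, 6 of the 8 genes differed between the 2 libraries in a shared order, described further below.

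Prg2 encodes eosinophil major basic protein, the cationic protein of the granule core. It lies on chromosome 2 from 84980461 to 84983632 on the plus strand in mm10 (ENSMUSG00000027073.5). Its level was 1077 CPM in wild type 1, 465 CPM in wild type 2, 1866 CPM in knockout 1 and 2385 CPM in knockout 2. Both knockout libraries lay above both wild type libraries, and wild type 2 was the lowest. The wild type mean was 771 ± 433 CPM and the knockout mean 2125 ± 367 CPM (SD, n = 2 each). The log2 fold change, knockout against wild type, was 1.46 (SE 0.461, 95% interval 0.18 to 2.74), which is 2.76-fold with an interval of 1.13 to 6.69. The unadjusted p of edgeR's quasi-likelihood test was 0.0338 and the adjusted p was 0.494. Of the 8 genes, 1 had an unadjusted p under 0.05 with higher values in the knockout (5.66% of all genes) and 0 with lower values (4.23%). The log2 fold change was 2.18 without wild type 1 (adjusted p = 0.0945) and 0.98 without wild type 2 (adjusted p = 0.203), both by edgeR. In the authors' deposited table Prg2 has a log2 fold change of 1.46 and an adjusted p of 0.169.

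Prg2 RNA was abundant among all genes measured. By CPM per kilobase of gene length, a scale on which genes can be compared, Prg2 ranked 20 in wild type 1, 59 in wild type 2, 6 in knockout 1 and 4 in knockout 2 among the 13614 genes. On that scale its level was 1286 and 555 in wild type 1 and 2 and 2226 and 2846 in knockout 1 and 2. Among the 9397 genes whose log2 CPM averaged at least 3, 10 (0.106%) had a log2 fold change as high as that of Prg2 or higher. In bulk RNA a larger number of cells of a type and more RNA per cell cannot be told apart, and this holds for every level given here.

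Prg3 encodes a homolog of major basic protein and lies 4582 bp downstream of Prg2 on the same strand, from 84988215 to 84993886 (ENSMUSG00000027072.13). Its level was 318 CPM in wild type 1, 135 CPM in wild type 2, 349 CPM in knockout 1 and 514 CPM in knockout 2. The groups did not overlap, but wild type 1 was close to knockout 1. The log2 fold change was 0.93 (SE 0.507, 95% interval -0.54 to 2.40, edgeR quasi-likelihood adjusted p = 0.605). It was 1.66 without wild type 1 and 0.43 without wild type 2. Of the 8 genes, 2 (Prg2 and Prg3) lay higher in the knockout without overlap and 1 (Mcpt8) lower. Over all genes these shares were 22.2% and 21.9%, so 3 of 8 is near the background.

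**Figure D1:**
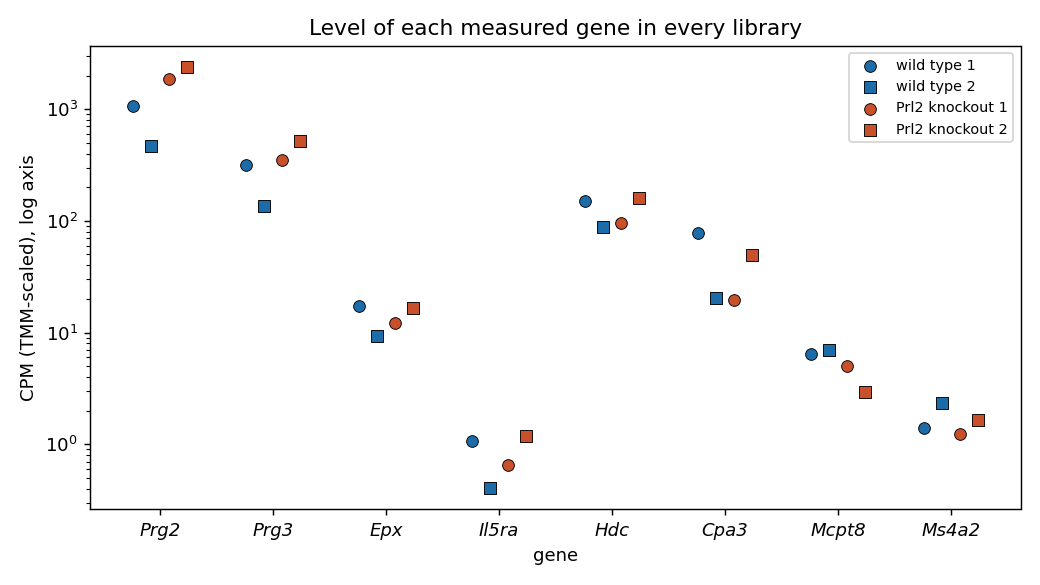
CPM of the 8 measured genes on a log axis, with 1 point per library (circles for replicate 1, squares for replicate 2, blue for wild type and orange for Prl2 knockout). Prg2 spans 465 to 2385 CPM with both knockout points on top, while Hdc, Cpa3 and Epx interleave between genotypes.

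The ratio of Prg2 to Prg3 was similar within each genotype and higher in both knockout libraries. There were 3.39 Prg2 counts per Prg3 count in wild type 1 and 3.43 in wild type 2, although both genes were lower in wild type 2. The ratio was 5.35 in knockout 1 and 4.64 in knockout 2, so both knockout libraries lay above both wild type libraries. The mean log2 ratio was 1.77 ± 0.0132 for wild type and 2.32 ± 0.145 for knockout libraries (SD, n = 2 each), a difference of 0.55. An exact two-sided permutation test gave p = 0.333, the smallest that 2 libraries against 2 allow. Without each library in turn the difference lay between 0.45 and 0.65. This ratio was chosen after the values were seen.

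The pair are paralogs, and their longest GENCODE M21 coding transcripts are 65.7% identical over 814 aligned bases. The longest stretch they share without a mismatch is 23 bases. No stretch of 50 bases of either gene occurs in a transcript of another gene, on either strand, and no exon of another gene overlaps theirs. Of the genes within 100 kb of the pair, 4 others were in the table, with log2 fold changes from 0.13 for Ssrp1, a histone chaperone subunit, to 0.51 for P2rx3, an ATP-gated channel. Slc43a3, a purine transporter upstream of Prg2, had 0.36 (SE 0.112, edgeR adjusted p = 0.474), with 114 and 128 CPM in wild type 1 and 2 and 161 and 149 CPM in knockout 1 and 2.

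The other eosinophil genes of the list, Epx and Il5ra, overlapped between genotypes. Epx, which encodes eosinophil peroxidase, lies on chromosome 11 from 87864000 to 87875536 on the minus strand. It was at 17.3 CPM in wild type 1, 9.36 CPM in wild type 2, 12.1 CPM in knockout 1 and 16.6 CPM in knockout 2. The genotypes overlapped fully, and wild type 1 was the highest library. The log2 fold change was 0.11 (SE 0.346, 95% interval -0.76 to 0.97, edgeR adjusted p = 0.936). For each Epx count there were 62.4 and 49.7 Prg2 counts in wild type 1 and 2 and 154 and 144 in knockout 1 and 2, without overlap. The ratio to Epx was chosen after the values were seen and was not tested.

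Il5ra, the interleukin-5 binding chain of the receptor for that cytokine, was near the bottom of the table. There were 16 and 6 counts in wild type 1 and 2 and 10 and 18 counts in knockout 1 and 2. At these counts no order of the genotypes could be seen (log2 fold change 0.32, 95% interval -1.31 to 1.95). Without wild type 1 the log2 fold change was 1.16. It lies on chromosome 6 from 106710357 to 106749037. Of 13 other eosinophil genes listed, 7 were measured, 5 with a positive and 2 with a negative log2 fold change and 0 called by edgeR. Their median was 0.54, against -0.0059 over all genes tested. The most abundant were Csf2ra, the GM-CSF receptor chain (438 and 454 CPM in wild type 1 and 2 and 360 and 412 CPM in knockout 1 and 2), and Adgre1, a receptor of macrophages and eosinophils. Adgre1 was at 285 and 251 CPM in wild type 1 and 2 and 323 and 537 CPM in knockout 1 and 2. Siglecf, a sialic acid receptor of mouse eosinophils, was at 226 and 144 CPM in wild type 1 and 2 and 268 and 270 CPM in knockout 1 and 2. The groups did not overlap for Siglecf, whose log2 fold change was 0.54 (SE 0.222, edgeR adjusted p = 0.518). Of the 7 measured, 4 lay higher in the knockout without overlap (22.2% of all genes did). Another 2, Csf2ra and Il3ra, lay lower without overlap (21.9% of all genes), and Il3ra had a log2 fold change of -0.42. Siglecf was chosen after its values were seen.

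**Figure D2:**
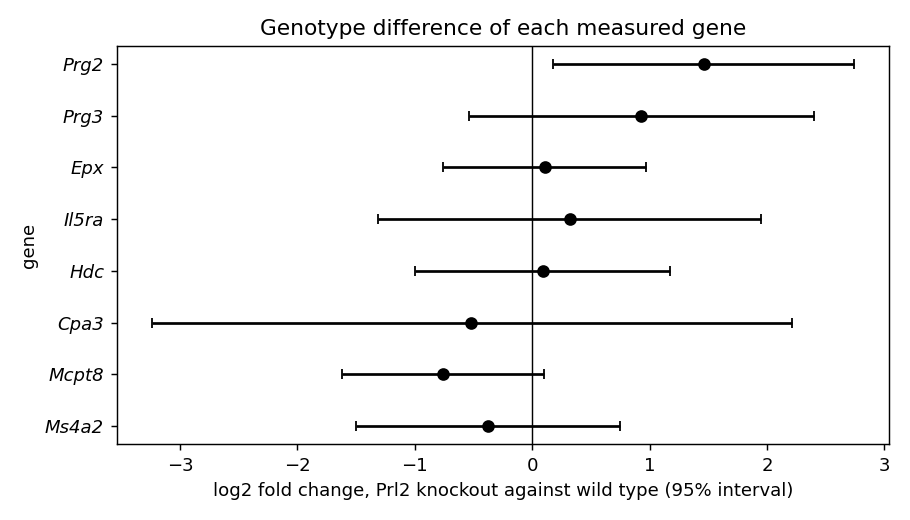
Log2 fold change of each measured gene, Prl2 knockout against wild type, from edgeR's quasi-likelihood fit with its 95% interval over 2 libraries per group. The interval of Prg2 alone lies above 0, from 0.18 to 2.74, before adjustment over all genes, and that of Cpa3 is the widest.

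Among mast cell and basophil genes, Hdc and Cpa3 were the most abundant. Hdc encodes histidine decarboxylase, the enzyme that makes histamine, and lies on chromosome 2 from 126593667 to 126619299 on the minus strand. It was at 152 CPM in wild type 1, 87.5 CPM in wild type 2, 95.3 CPM in knockout 1 and 159 CPM in knockout 2. Each genotype had 1 high and 1 low library, and the means were 120 ± 45.4 and 127 ± 44.9 CPM (SD, n = 2 each). The log2 fold change was 0.09 (SE 0.39, edgeR adjusted p = 0.956), which is 1.06-fold with a 95% interval of 0.501 to 2.25.

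Cpa3, the carboxypeptidase of mast cell and basophil granules, varied most between libraries of the same genotype among the measured genes of the list. It lies on chromosome 3 from 20215620 to 20242181 on the minus strand. Its level was 78.6 CPM in wild type 1, 20.3 CPM in wild type 2, 19.6 CPM in knockout 1 and 49.6 CPM in knockout 2. Wild type 2 and knockout 1 were nearly equal, and the other libraries were higher. The log2 fold change was -0.52 (SE 0.90, 95% interval -3.24 to 2.21, edgeR adjusted p = 0.876). It was 0.76 without wild type 1, 0.0039 without knockout 1 and -1.34 without knockout 2, so single libraries set its sign.

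Mcpt8, a granule protease that marks mouse basophils, and Ms4a2, the beta chain of the IgE receptor, were low. Mcpt8 (chromosome 14, 56082166 to 56085273) was at 6.42 and 6.94 CPM in wild type 1 and 2 and 4.97 and 2.91 CPM in knockout 1 and 2. It was the measured gene that lay lower in both knockout libraries, with a log2 fold change of -0.76 (SE 0.346, 95% interval -1.62 to 0.10, edgeR adjusted p = 0.534). Its log2 fold change was -0.42 without knockout 2 and -1.20 without knockout 1. Ms4a2 (chromosome 19, 11615523 to 11623719) had 21 and 35 counts in wild type 1 and 2 and 19 and 25 counts in knockout 1 and 2, which overlap. Of its 50-base stretches, 2.1% also occur in Ms4a4b, so those reads are uncertain.

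By CPM per kilobase the 8 genes fell into the order Prg2, Prg3, Cpa3 and Hdc, Mcpt8 and Epx, Ms4a2 and Il5ra. Prg2 (555 to 2846) lay above Prg3 (143 to 541) over all 4 libraries. Cpa3 (12.9 to 51.8) and Hdc (13.7 to 24.9) overlapped, as did Mcpt8 (2.91 to 6.95) and Epx (3.42 to 6.3). Ms4a2 (0.442 to 0.838) lay above Il5ra (0.113 to 0.333). Siglecf, which is outside the list, was at 51.7 to 96.6 on this scale, below Prg3 and above Il5ra in every library. Leaving out wild type 2, or knockout 2, turned the small positive log2 fold changes of Epx, Il5ra and Hdc negative, and leaving out wild type 2 gave 0.04 for Ms4a2.

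The other genes of mast cells and basophils were split. Of 31 listed, 13 were measured, 5 with a positive and 8 with a negative log2 fold change, with 0 called by edgeR and a median of -0.08. Without knockout 2, 3 were positive. Srgn, the proteoglycan core of granules in many blood cells, Ctsg, the granule protease cathepsin G, and Alox5ap, which serves leukotriene synthesis, were the most abundant. Alox5, the 5-lipoxygenase, had the 1 unadjusted p under 0.05 (0.0123), at 83.4 and 95.1 CPM in wild type 1 and 2 and 118 and 163 CPM in knockout 1 and 2. Its log2 fold change was 0.65 (SE 0.179, edgeR adjusted p = 0.474). Kit, the stem cell factor receptor that mast cells and blood progenitors both carry, had a log2 fold change of 0.15 (SE 0.148). Downstream of the IgE receptor, all 16 listed signalling genes were measured, 10 with a positive and 6 with a negative log2 fold change, with a median of 0.06 and 0 called by edgeR. Among their most abundant members were Ptpn6, the phosphatase SHP-1, and the kinase gene Syk, with log2 fold changes of 0.18 and 0.07.

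Summed over the 8 genes, the level was 1652 CPM in wild type 1, 727 CPM in wild type 2, 2348 CPM in knockout 1 and 3129 CPM in knockout 2. Prg2 made up 65.2% and 63.9% of this sum in wild type 1 and 2 and 79.5% and 76.2% in knockout 1 and 2. Without Prg2 and Prg3 the sums were 257 and 127 CPM in wild type 1 and 2 and 134 and 231 CPM in knockout 1 and 2, which overlap. The excess of the knockout libraries in the sum thus sat in the 2 major basic protein genes. The median log2 fold change of the 8 genes was 0.10, with 5 positive and 3 negative, against -0.0059 over all genes with 49.1% positive.

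**Figure D3:**
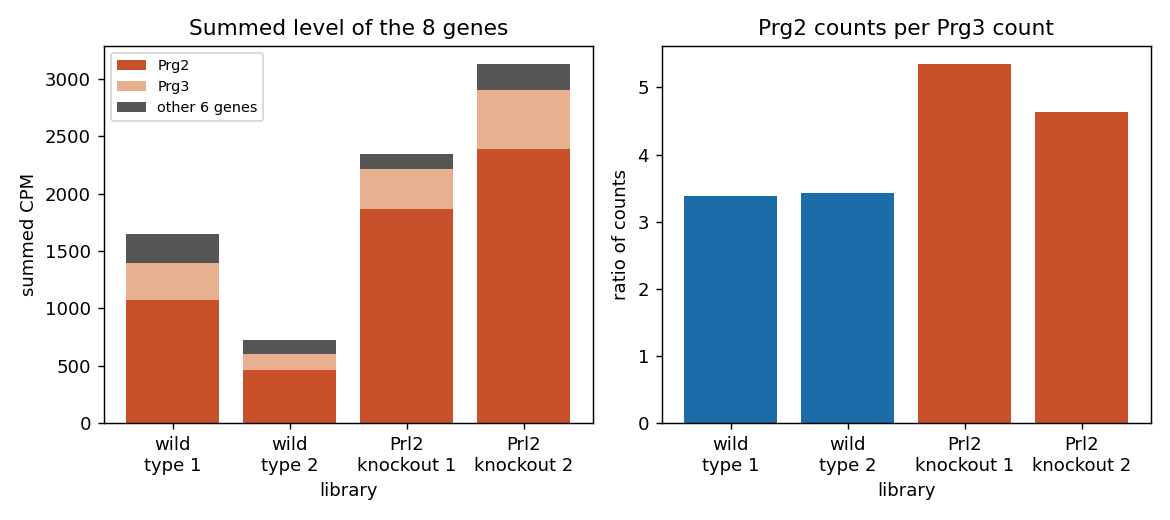
Left, summed CPM of the 8 genes in each library, split into Prg2, Prg3 and the other 6 genes; right, Prg2 counts per Prg3 count in each library. The sum runs from 727 to 3129 CPM and is mostly Prg2, and the ratio is 3.39 and 3.43 for wild type libraries against 5.35 and 4.64 for knockout libraries.

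Within each genotype the 2 libraries differed in a common direction. Prg2, Prg3, Epx, Il5ra, Hdc and Cpa3 were all higher in wild type 1 than in wild type 2, and all higher in knockout 2 than in knockout 1. That is 6 of the 8 genes, where 25.2% of all genes had this order. Every gene in the table reached at least 0.6702 CPM in at least 2 libraries. Il5ra, at 0.404 CPM in wild type 2 and 0.654 CPM in knockout 1, did so only in wild type 1 and knockout 2. The filter thus fixed its order in advance, although it is counted among the 6. The order was picked after the values of these genes were seen, so these shares are a description and not a test. The labels state no pairing of libraries by replicate number, so the order is read only as which library was high. Wild type 1 exceeded wild type 2 by 2.32-fold for Prg2, 2.35-fold for Prg3, 1.84-fold for Epx, 1.73-fold for Hdc and 3.88-fold for Cpa3. Knockout 2 exceeded knockout 1 by 1.28-fold for Prg2, 1.47-fold for Prg3, 1.37-fold for Epx, 1.67-fold for Hdc and 2.54-fold for Cpa3. Among the same 9397 genes, 0.447% differed by as much as Cpa3 between the wild type libraries and 0.479% between the knockout libraries.

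Over the list of 21 lineage regulators, 20 were measured, and 5 of them were high in wild type 1 and knockout 2, a share near the 25.2% of all genes. Another 5 had the opposite order (26.6% of all genes did). Gata2, a transcription factor of progenitors, mast cells and basophils, was at 184 and 52.4 CPM in wild type 1 and 2 and 72 and 125 CPM in knockout 1 and 2. Gata1, the related factor of erythroid cells, megakaryocytes, eosinophils and mast cells, had 69 and 7 counts in wild type 1 and 2 and 8 and 29 counts in knockout 1 and 2. Zfpm1, the GATA cofactor FOG-1, was at 19.9 and 6.4 CPM in wild type 1 and 2 and 7.72 and 14 CPM in knockout 1 and 2. For these 3 genes the high libraries were again wild type 1 and knockout 2. Gata1, at 0.471 CPM in wild type 2 and 0.523 CPM in knockout 1, has a row only through its high libraries. The filter thus fixed the order of Gata1 in advance. Between genotypes, 7 of the 20 regulators had a positive and 13 a negative log2 fold change and 0 were called by edgeR, with a median of -0.04. Without wild type 1, 11 were positive, without wild type 2 there were 10, without knockout 1 there were 12, and without knockout 2 there were 7. Among the most abundant, Lmo2 and Spi1, which encodes PU.1, had log2 fold changes of 0.05 and -0.03, and Cebpe, a factor of granulocyte and eosinophil maturation, had 0.25 (SE 0.118). Gata1, Gata2, Zfpm1 and Cebpe were chosen after their values were seen.

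All 12 genes of the neutrophil list were measured, and 5 of them, Mpo, Elane, Prtn3, Ctsg and Ngp, had the opposite order, against 26.6% of all genes. Camp and Mmp8 had the order of the 8 genes, and the other 5 had neither. S100a9, a calcium-binding protein and the most abundant of the list, was at 3680 and 5216 CPM in wild type 1 and 2 and 3834 and 3893 CPM in knockout 1 and 2, so it did not follow either order. Mpo, myeloperoxidase, was at 1193 and 3009 CPM in wild type 1 and 2 and 1189 and 561 CPM in knockout 1 and 2. Elane, neutrophil elastase, was at 943 and 2717 CPM in wild type 1 and 2 and 1467 and 612 CPM in knockout 1 and 2. Prtn3 and Ctsg were likewise lowest in knockout 2 and highest in wild type 2. Mpo, Elane, Prtn3 and Ctsg, all stored in primary granules, were chosen after their values were seen. The 12 genes had summed levels of 14963 and 24359 CPM in wild type 1 and 2 and 17102 and 15065 CPM in knockout 1 and 2. The part of these cells in the order of the libraries was not tested. Wild type 1 and wild type 2 also differed in the sex-linked genes, and Ddx3y had 1320 and 1173 counts in knockout 1 and 2. The part of sex in the order of the libraries was not tested.

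**Figure D4:**
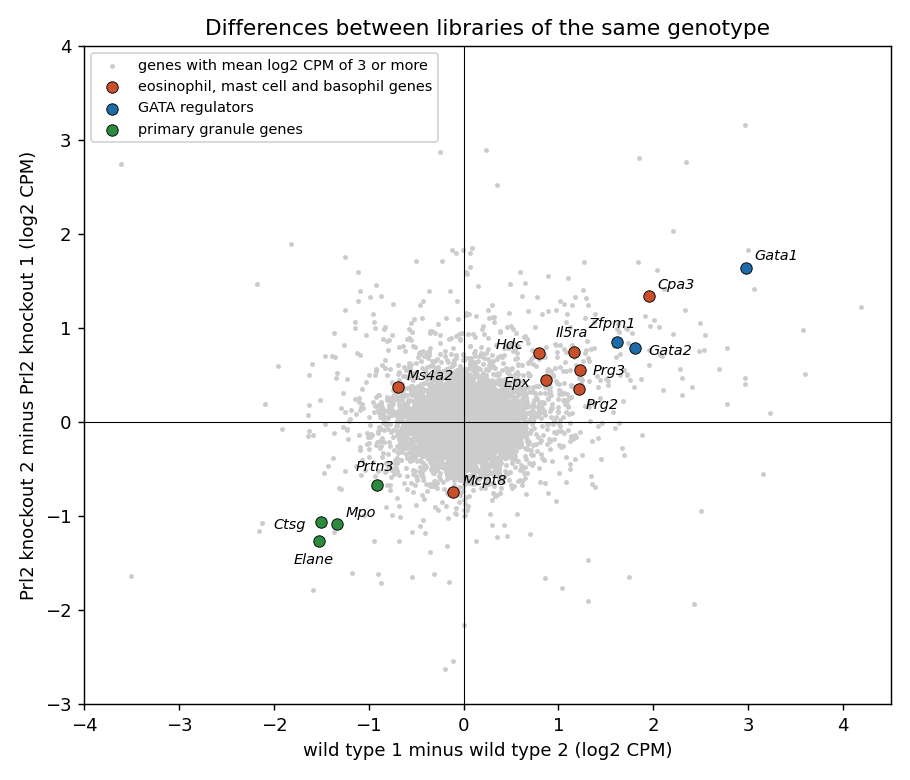
Difference between the libraries of 1 genotype in log2 CPM, wild type 1 minus wild type 2 on the x axis and Prl2 knockout 2 minus knockout 1 on the y axis, for genes whose log2 CPM averaged at least 3 (grey) and for named genes (colours). Of the 8 genes 6 lie at the upper right with Gata1, Gata2 and Zfpm1, while Mpo, Elane, Prtn3 and Ctsg lie at the lower left. Il5ra and Gata1 have a row only through wild type 1 and knockout 2, so the filter fixed their order in advance. Mcpt8, of the 8 genes, also lies at the lower left. The named regulators and primary granule genes were chosen after their values were seen. Of 20 regulators 5 had the upper right order and 5 the lower left one, and of 12 neutrophil genes 2 and 5.

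The promoters of 4 of the genes that shared this order are shown, as the stretch of 250 bases before the start of the gene. The sequences are from RefSeq (GRCm38.p6), 5′ to 3′ on the strand of the gene. Prg3 is at chr2:84987965-84988214 (plus strand), Cpa3 at chr3:20242182-20242431, Hdc at chr2:126618679-126618928 and Epx at chr11:87875537-87875786 (minus strand). RefSeq places the start of Hdc inside the gene span given above, which reaches a further, non-coding transcript. Capitals mark GATAA or its reverse complement TTATC, the core letters that GATA factors recognise.
Prg3: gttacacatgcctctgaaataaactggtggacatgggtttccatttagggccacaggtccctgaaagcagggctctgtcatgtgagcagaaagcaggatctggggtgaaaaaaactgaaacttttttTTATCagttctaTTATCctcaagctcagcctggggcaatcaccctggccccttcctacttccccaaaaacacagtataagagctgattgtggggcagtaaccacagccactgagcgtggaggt
Cpa3: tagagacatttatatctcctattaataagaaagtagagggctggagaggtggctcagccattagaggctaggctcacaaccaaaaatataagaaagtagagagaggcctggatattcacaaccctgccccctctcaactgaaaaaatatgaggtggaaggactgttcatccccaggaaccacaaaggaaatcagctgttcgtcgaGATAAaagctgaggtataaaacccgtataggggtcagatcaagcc
Hdc: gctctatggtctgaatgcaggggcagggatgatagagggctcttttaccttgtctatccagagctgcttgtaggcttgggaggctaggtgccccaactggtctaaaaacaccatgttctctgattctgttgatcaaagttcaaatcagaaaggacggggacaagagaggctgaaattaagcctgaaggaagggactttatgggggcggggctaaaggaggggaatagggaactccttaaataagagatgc
Epx: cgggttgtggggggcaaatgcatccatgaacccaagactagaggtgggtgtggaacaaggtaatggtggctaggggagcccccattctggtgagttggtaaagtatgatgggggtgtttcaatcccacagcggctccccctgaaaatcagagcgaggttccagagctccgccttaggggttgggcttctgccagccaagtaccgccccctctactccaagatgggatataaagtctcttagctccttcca
Prg3 held 2 matches, which begin 123 and 111 bases before the start, and Cpa3 held 1, at 45 bases. The stretches of Hdc and Epx held no match. Il5ra, not shown, had the same order of libraries, fixed in advance by the filter, and 1 match. Ms4a2, not shown, did not have that order and held 3 matches. Any link between these letters and the order of the libraries was not tested. A promoter sequence was at hand for 7 of the 8 measured genes, all but Prg2, and 4 of these 7 held GATAA on either strand (Prg3, Cpa3, Il5ra and Ms4a2). Of 32851 promoter stretches of this length, 22.6% did. The letters TTNNGNAA, searched for C/EBP factors, were found in 1 of the 7 (36.8% of all promoters). GAGGAA, searched for PU.1, was in 1 of the 7 (23.3% of all promoters). That gene was Mcpt8, whose stretch overlaps an exon of Mcpt8 itself in GENCODE. No match of these motifs overlapped another in the 7 promoters, and a match is a run of letters, not a measured binding site.

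Markers of other blood cells were measured beside these genes. Of 18 genes of cytotoxic T and NK cells, cells that also use granzymes, 4 were measured, with summed levels from 110 to 337 CPM. Nkg7, a granule membrane protein, made up nearly all of that, at 107 and 333 CPM in wild type 1 and 2 and 209 and 220 CPM in knockout 1 and 2. Gzmm, Klrb1c and Klrk1 stayed below 2 CPM in all 4 libraries. In the cluster of granzyme and mast cell protease genes around Mcpt8, 1 of 13 other listed genes was measured, Ctsg.

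The genes whose pattern over the 4 libraries was most like the mean log2 CPM of the 8 genes were Sema4c, Slc35d1, Cacna1d, Pdgfrb and Slc2a6. Pearson's r over the 4 libraries was 0.9990 for Sema4c, a semaphorin, and 0.9896 for Slc2a6, a sugar transporter, among the 568 other genes with a mean log2 CPM of at least 3 and a range of at least 1. Pdgfrb, a platelet-derived growth factor receptor, was at 91.4 and 10.8 CPM in wild type 1 and 2 and 30.3 and 81.2 CPM in knockout 1 and 2. All points share the same 4 libraries, so this is a description of which libraries were high.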

How the data were processed

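The authors deposited raw counts of reads for each gene in each of 4 RNA libraries, in whole numbers. STAR, Bowtie2, featureCounts and mm10 are named by the submitters' processing notes, without versions. Whether counting used strand is not given in the sources used here. The authors also deposited, per the file headers, log2 CPM and log2 RPKM values, a log2 fold change, p-values with adjusted p-values, and gene lengths in bp. All 13614 genes exceed 0.5 CPM in at least 2 libraries, with 0.6702 CPM as the lowest second-highest value, so the table was filtered. Symbols of 18 genes turned into dates were restored from their IDs.

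Groups and replicate numbers come from the titles, and columns were matched by the short names in the descriptions. Counts were tested with edgeR 4.0.16 (R 4.3.3; TMM, filterByExpr, robust quasi-likelihood test, genotype as the 1 term) over all genes, two-sided, with Benjamini-Hochberg adjustment. The standard error is the log2 fold change divided by the root of F. CPM values are TMM-scaled; log2 CPM used a prior count of 2. DESeq2 1.42.0, limma-voom (limma 3.58.1) and the likelihood ratio test were alternatives. The fits were tested on simulated data with the same spread set for all genes. This checks the code and not how the tests behave on these libraries.

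Libraries of 1 group differed by more than sampling noise (chi-square per gene 33.8 for wild type and 18.7 for knockout). Whether replicates were separate embryos or cultures is not labelled. The p-values thus set the genotype difference against the spread between these libraries, which may be technical. The genes and lists were chosen with earlier results of these data known. Of each list the text names up to 3 of the most abundant genes and up to 3 with an unadjusted p under 0.05, fewer where space was short, and genes chosen after their values were seen are marked as such.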

Additional observations from a re-analysis of the deposited data

How the results depend on the processing

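No setting called any of the 8 genes, and DESeq2 gave Il5ra no adjusted p. Of 88 values of single genes under alternatives, 79 kept their direction and 9 reversed, all 9 on leaving out 1 library. Without each library in turn, the log2 fold change ran from 0.98 to 2.18 for Prg2, 0.43 to 1.66 for Prg3, -0.27 to 0.60 for Epx, -0.22 to 1.16 for Il5ra, -0.71 to 0.04 for Ms4a2, -1.34 to 0.76 for Cpa3, -1.20 to -0.42 for Mcpt8 and -0.33 to 0.53 for Hdc. The median of the 8 genes ran from -0.25 to 0.68. In fits with 1 library in a group, that library is assumed to vary like the others. Over all genes, edgeR's quasi-likelihood test called 0 higher and 1 lower. DESeq2 called 46 higher and 46 lower (adjusted p-values for 12822 genes), and the likelihood ratio test 25 and 40. Leaving out 1 library gave 0 to 4 higher and 0 to 4 lower. With 2 libraries per group and 6 to 35 counts, no difference in Il5ra or Ms4a2 was detectable at this depth.

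Deviations of same-numbered libraries correlated at r = -0.14 over 9397 genes, so the numbers were not taken as pairs. With the replicate number as a block, 0 genes were called higher and 1 lower, and the median of the 8 genes was 0.12. With the crossed pairing, added after seeing the data, 0 were called higher and 1 lower.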

Other observations

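Other lineages that depend on GATA factors were low in all libraries. Of 8 megakaryocyte genes 4 were measured, all with a negative log2 fold change and a median of -0.90. Their summed levels were 60.9 and 26.9 CPM in wild type 1 and 2 and 18.7 and 27 CPM in knockout 1 and 2. The sums of wild type 2 and knockout 2 were nearly equal, and without wild type 1 the log2 fold change of Itga2b, an integrin chain of platelets, turned from -0.76 to 0.62. Of 11 erythroid genes 5 were measured, all with a negative log2 fold change and a median of -2.04 (-2.50 to -1.77 without each library in turn), with summed levels of 27.3 and 14.8 CPM in wild type 1 and 2 and 4.84 and 8.78 CPM in knockout 1 and 2. By edgeR's quasi-likelihood test 0 members of either list were called, and 2 of the 4 and 4 of the 5 had an unadjusted p under 0.05 with lower values in the knockout (4.23% of all genes). Both knockout libraries lay below both wild type libraries for 3 of the 4 and 5 of the 5 (21.9% of all genes). Of the erythroid genes, Hba-a1 and Hbb-bt exceeded 0.5 CPM only in the wild type libraries. They have a row only through that group, so the filter fixed their order in advance. The erythroid counts and median include them and are a description only. In both lists wild type 1 had the highest sum and knockout 1 the lowest.

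Cd200r3, a basophil and mast cell receptor, had higher counts in wild type 1 than elsewhere, at 4.68 and 0.741 CPM in wild type 1 and 2 and 0.327 and 0.793 CPM in knockout 1 and 2. Slc45a3, listed with the mast cell and basophil genes, was at 8.96 and 0.539 CPM in wild type 1 and 2 and 0.262 and 4.42 CPM in knockout 1 and 2. Alox15, the lipoxygenase of eosinophils and some macrophages, was at 7.76 and 1.35 CPM in wild type 1 and 2 and 4.45 and 12.9 CPM in knockout 1 and 2. These 3 genes were chosen after their values were seen.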
